A study of Mus musculus with 6 samples.

Results

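The genes described here encode the machinery of intraflagellar transport, the traffic that builds and maintains the primary cilium, and the motors that drive it. They are 34 of the 16000 genes in the count table, chosen by symbol from a fixed list and sorted by complex. The list holds 6 subunits of the IFT-A complex and its adaptor Tulp3, 11 subunits of the IFT-B1 core, 6 of the peripheral IFT-B2 complex, 5 kinesin-2 genes, 4 dynein-2 genes and the kinesin-4 gene Kif7. All 34 symbols were found in the table, and 33 passed the filter on low counts. The exception was Kif17.

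A primary cilium has no ribosomes of its own, so its proteins are carried in on trains that run along the axoneme. Kinesin-2 pulls the trains toward the tip, with IFT-B as their backbone, and dynein-2 returns them to the base, with IFT-A needed for the return and for the entry of membrane proteins. Fibroblasts of the NIH3T3 line are a standard model of this organelle because serum withdrawal lets most of them grow a cilium.

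Messenger RNA was sequenced from serum-starved NIH3T3 cells, an immortal fibroblast line made from mouse embryos. One group of 3 libraries is wild type and the other group of 3 libraries carries the label Rai16 KO. Rai16 (listed as Fam160b2) belongs to the FHIP family, whose members link dynein to its cargo. The sources used here do not say how long serum was withheld, how the gene was disrupted, whether the knockout is 1 clone or several, or whether the libraries came from separate cultures. A p-value below thus reflects only how much these 6 libraries vary, and that variation may be technical.

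Libraries held 16741607 to 18368760 counts, of which 20598 to 22972 fell on the 34 genes. Levels are given as CPM, a gene's count scaled to the TMM-adjusted size of its library, in the order of replicates 1, 2 and 3. Fam160b2 stood at 25.4, 22.5 and 23.6 CPM in wild type and at 22.3, 21.5 and 22.0 CPM in knockout (adjusted p = 0.184 in edgeR's quasi-likelihood test), so its transcript was not lower by test, and a count over the whole gene cannot show a small lesion. Knockout is used below for the libraries so labelled. The fibroblast markers were abundant except Fap, at no more than 2 counts in any library. Together they made up 24035 to 24521 CPM in wild type and 19269.9 to 22478 CPM in knockout. Fn1 alone stood at 13984 ± 262 and 9196 ± 1951 CPM (SD, n = 3 each). Of 9 tested 4 rose and 3 fell at an adjusted p below 0.05 in the same test, 77.8% beside 59.6% of all genes. Col3a1 had the largest fall, to 32.2% of wild type, and Thy1 the largest rise, to 186%. Markers of multiciliated cells, which also use these transport genes, summed to 8.55 to 10.01 CPM in wild type and 8.50 to 9.93 CPM in knockout. Of the 10 markers 4 were listed, nearly all of the sum came from Ccdc39, and the master factor Foxj1 lay at 0.211 ± 0.202 and 0.182 ± 0.0811 CPM (SD, n = 3 each). The sums of the other marker lists rested mostly on 1 or 2 genes each. Epithelial markers summed to 1.32 to 2.01 CPM in wild type and 4.12 to 5.18 CPM in knockout, mainly Krt8 (1.047 to 4.35 CPM), with Krt18 and Cldn4 near 0. Leukocyte markers summed to 3.90 to 4.71 and 6.31 to 7.96 CPM, mainly Cd68 and Csf1r, with Ptprc near 0. Endothelial markers summed to 0.402 to 0.659 and 1.41 to 4.03 CPM, mainly Cdh5 in knockout, with Tek and Kdr near 0. Neural markers summed to 12.9 to 15.5 and 1.74 to 2.88 CPM, nearly all of it Map2 (13.1 to 1.91 CPM), with Rbfox3 and Gfap near 0. Their part in the results was not tested.

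Knockout replicate 2 stood apart from the other knockout libraries in a way that followed gene length. Gene lengths here are those implied by the deposited counts and FPKM. Over the 33 genes tested, the gap in log2 CPM between this library and the mean of knockout replicates 1 and 3 ran against length with a Spearman rho of −0.72. Over all 11972 genes tested rho was −0.66, and the same measure for each wild-type library lay between −0.16 and 0.14. Of the 10 shortest transport genes (0.809 to 2.852 kb) 9 were above the other knockout libraries in replicate 2, and of the 10 longest (5.091 to 14.451 kb) 9 were below. These correlations are across genes measured in the same libraries and are descriptions only. Results are given with and without this library where it changes a call.

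**Figure D1:**
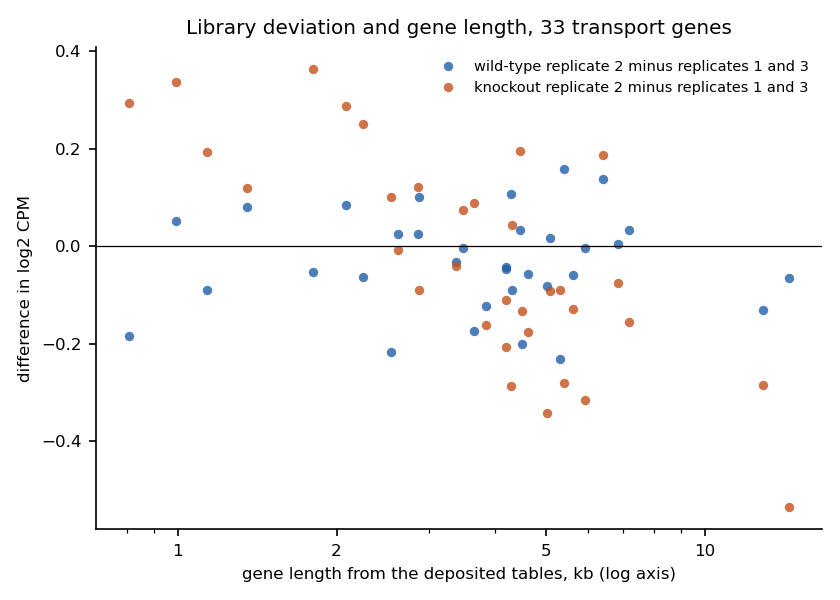
Difference in log2 CPM between replicate 2 and the mean of replicates 1 and 3 of the same group (vertical axis) against gene length in kb on a log axis, for 33 transport genes, in wild type (blue) and knockout (orange). The knockout points fall from left to right (rho −0.72) and the wild-type points show no such slope (rho 0.01).

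The transport genes moved in both directions, with 1 large change among many small ones. Of 33 genes tested 9 rose and 8 fell in knockout, and 16 did not pass. That is 51.5% called, where 59.6% of all 11972 genes were called (30.5% higher and 29.2% lower), so the share was not above the background. The median log2 fold change (knockout over wild type) was 0.03, beside 0.00 over all genes, and the median size was 0.21, beside 0.32. Only Dync2h1 passed the test with a change of at least 2-fold, a class that held 10.9% of all genes. CPM did not overlap between the groups for 21 of the 33, where it did not overlap for 67.6% of all genes. The call rule was an adjusted p (Benjamini-Hochberg, all tested genes) below 0.05. In bulk RNA a lower level cannot be told apart from fewer cells that express the gene.

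By complex, calls were counted among the subunits tested. In IFT-A 1 of 6 subunits was called, in the IFT-B1 core 8 of 11, in IFT-B2 3 of 6, in kinesin-2 1 of the 4 tested and in dynein-2 2 of 4. These shares are 16.7%, 72.7%, 50%, 25% and 50%, beside 59.6% of all genes. The difference between these shares was not tested. Summed over its subunits, the IFT-B1 core stood at 306 to 315 CPM in wild type and 316 to 350 CPM in knockout, and IFT-B2 at 193 to 199 and 175 to 191 CPM. Without knockout replicate 2 the counts were 12 rises and 8 falls, or 60.6% called where 71.1% of all genes were. The genes added were Ttc21b, Ift80 and Kif3b, all higher. Without wild-type replicate 1 there were 7 rises and 5 falls. Over all genes, leaving it out took the rises from 3646 to 3091 and the falls from 3490 to 3026.

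**Figure D2:**
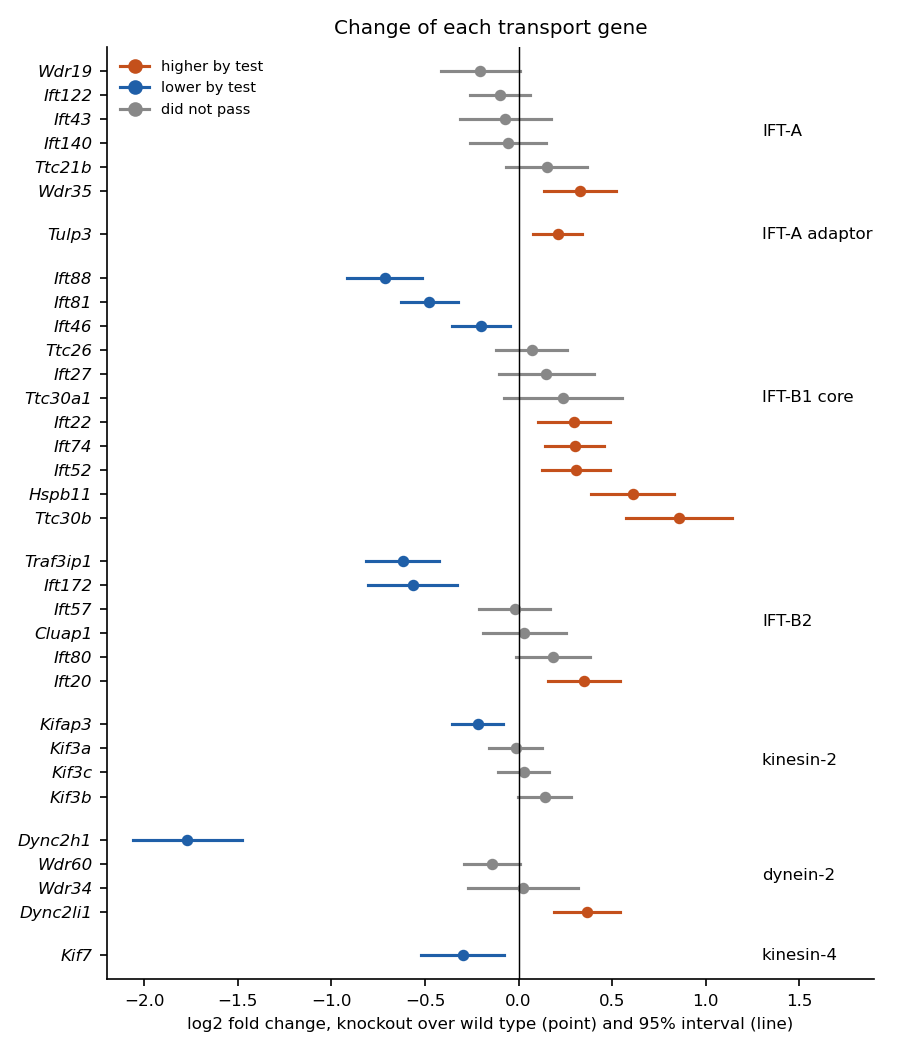
Log2 fold change of knockout over wild type (points) with its 95% interval (lines) for the 33 transport genes tested, grouped by complex. Orange marks the 9 genes higher by test, blue the 8 lower and grey the 16 that did not pass, and Dync2h1 lies far to the left of all others.

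The largest change was in the transcript of a subunit of the return motor. Dync2h1 encodes the heavy chain of dynein-2, the ATPase that walks trains from the tip of the cilium to its base. It stood at 47.0, 45.8 and 48.8 CPM in wild type and at 16.1, 10.6 and 14.8 CPM in knockout, so that the highest knockout library was far below the lowest wild-type one. The log2 fold change was −1.77 ± 0.13 (SE), which leaves 29.3% of the wild-type level (95% interval of the log2 value −2.06 to −1.48, adjusted p = 5.75e-06, edgeR). Of all genes tested 2.97% fell as much or more. Without knockout replicate 2 the value was −1.61 ± 0.074. Dync2h1 is the longest of the transport genes at 14.451 kb, and 895 genes of at least 10 kb had a median log2 fold change of −0.23, or −0.11 without that library. On the log2(FPKM + 1) scale, which understates changes of low genes, the fall was 1.12.

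The promoter of Dync2h1, from 250 bases before its start to 50 after, is shown because this gene carries the largest change of the family (RefSeq, build GRCm38.p6, chr9:7177009-7177308, minus strand, 5′ to 3′ along the gene).
Dync2h1: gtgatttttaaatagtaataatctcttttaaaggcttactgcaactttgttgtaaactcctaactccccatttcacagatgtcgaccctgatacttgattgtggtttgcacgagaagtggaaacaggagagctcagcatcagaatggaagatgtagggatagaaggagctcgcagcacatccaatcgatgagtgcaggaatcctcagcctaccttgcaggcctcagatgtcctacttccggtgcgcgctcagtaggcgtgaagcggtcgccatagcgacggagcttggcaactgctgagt

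The other dynein-2 subunits did not follow the heavy chain. Dync2li1, the light intermediate chain that binds and stabilises it, rose from 24.8, 24.6 and 21.9 CPM to 29.7, 32.4 and 29.8 CPM, with no overlap (log2 fold change 0.37 ± 0.078, adjusted p = 0.00312, edgeR). The intermediate chains did not pass. Wdr60 lay at 33.4, 33.1 and 32.1 against 31.4, 28.5 and 29.4 CPM, with each knockout library below each wild-type one (−0.14 ± 0.067, adjusted p = 0.0947), and Wdr34 overlapped at 8.99 ± 0.583 and 9.12 ± 1.396 CPM (SD, n = 3 each). Their 95% intervals on the log2 scale ran from −0.29 to 0.01 and from −0.27 to 0.32.

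Levels of different genes can be compared only per length, and FPKM, the deposited reads per kilobase scaled to depth, gives that scale. Ranks per length, here and below, rest on the lengths behind the deposited FPKM. For some genes these differ much from the longest coding transcript in GENCODE M21, and such ranks could change with another length. The change of a gene between groups does not depend on its length in this scale. In wild type Dync2li1 stood at 17.5 FPKM, Wdr60 at 6.43, Wdr34 at 4.95 and Dync2h1 at 3.25. The order was the same in knockout, where Dync2h1 had dropped to 0.961 FPKM. The FPKM of Dync2li1 was 5.63, 5.74 and 4.78 times that of Dync2h1 in the wild-type libraries and 19.7, 32.5 and 21.5 times in the knockout libraries. Knockout replicate 2 gave the highest of these ratios, and all 3 knockout libraries were above the wild-type range.

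Dynein-2 shares most of its light chains with the dynein of the cytoplasm. Of 9 light chain genes tested 2 rose and 1 fell (median log2 fold change 0.10), or 33.3% called beside 59.6% of all genes. Dynlrb1, of the roadblock type, had the highest level of the list at 102 FPKM over all libraries and went from 87.3 ± 2.44 to 118 ± 15.2 CPM (log2 fold change 0.43 ± 0.089, adjusted p = 0.00274, edgeR). Dynll2 rose by 0.20 ± 0.056 on the log2 scale. Dynlt1b fell by 0.70 ± 0.11, from 13.3 ± 0.481 to 8.16 ± 1.08 CPM. Its near-identical copies, among them Dynlt1a with the lowest level of the list at 1.84 FPKM, make the assignment of its reads uncertain.

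Transcripts of the anterograde motor changed little, with log2 fold changes from −0.22 to 0.14 over the 4 genes tested, of which 1 was called. Kinesin-2 is a trimer of the motors Kif3a and Kif3b with the adaptor Kifap3, in which Kif3c can take the place of Kif3b. Kif3a stood at 96.5, 98.4 and 95.7 CPM in wild type and at 101, 89.1 and 97.4 CPM in knockout, and the groups overlapped (log2 fold change −0.02 ± 0.063, adjusted p = 0.844, edgeR). Kif3c overlapped too, at 52.1 ± 2.26 and 53.1 ± 1.64 CPM. Kif3b was higher in each knockout library, at 61.9, 57.5 and 64.0 against 56.9, 54.0 and 55.7 CPM, without passing (0.14 ± 0.062, adjusted p = 0.0806). It passed without knockout replicate 2 (0.18 ± 0.052, adjusted p = 0.0015). The 95% intervals of the log2 fold change were narrow for these genes, −0.16 to 0.13 for Kif3a and −0.11 to 0.16 for Kif3c.

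Kifap3 was the called member of kinesin-2. It fell from 89.0, 84.0 and 84.3 CPM to 74.3, 70.1 and 77.0 CPM, 86.0% of wild type (log2 fold change −0.22 ± 0.060, adjusted p = 0.0118, edgeR). Without wild-type replicate 1 the change was −0.19 and did not pass (adjusted p = 0.0601). By the deposited FPKM Kifap3 was the most abundant of the 4 in both groups, at 20.3 FPKM in wild type and 17.6 in knockout. Kif3a, Kif3b and Kif3c followed. That order rests on deposited lengths of 4201 bases for Kifap3 and 7187 for Kif3a. Their longest coding transcripts in GENCODE M21 had 4012 and 3161 bases, so the rank of Kif3a is uncertain. Kif17, a kinesin-2 of neurons and photoreceptors that works as a homodimer, had 2, 0 and 2 counts in wild type and 0, 1 and 0 in knockout and was not tested.

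**Figure D3:**
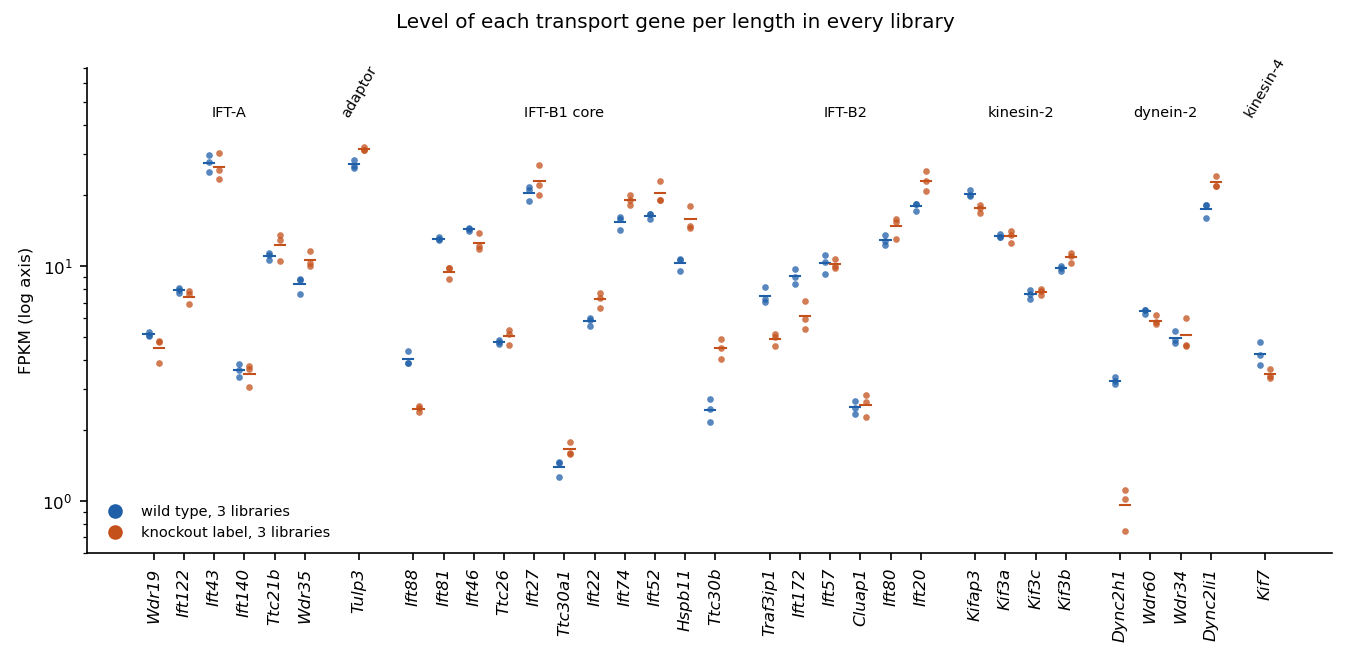
FPKM on a log axis of each of the 33 transport genes tested in the 3 wild-type libraries (blue) and the 3 knockout libraries (orange), with lines at the means, grouped by complex. Most genes lie between 2 and 30 FPKM with the groups close together, and Dync2h1 drops from 3.25 to 0.961 FPKM.

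Subunits of IFT-A differed little between the groups. This complex couples trains to dynein-2 and brings receptors into the ciliary membrane. Wdr35 (IFT121) was the only called subunit, at 39.5, 34.5 and 39.8 CPM in wild type and 46.1, 44.7 and 52.1 CPM in knockout, with no overlap (log2 fold change 0.33 ± 0.084, adjusted p = 0.00826, edgeR). The others did not pass. Ift122, Ift140 and Ift43 had log2 fold changes of −0.10, −0.06 and −0.07, and the lowest bound of their 95% intervals was −0.31, that of Ift43. Wdr19 (IFT144) lay lower in each knockout library, at 28.3, 22.7 and 28.3 against 29.9, 30.4 and 31.1 CPM, with its lowest value in knockout replicate 2 (−0.20 ± 0.093, adjusted p = 0.086). Ttc21b (IFT139) stood at 64.5, 52.4 and 68.4 CPM in knockout against 57.0, 53.5 and 56.2 CPM in wild type. Its change of 0.15 ± 0.095 (adjusted p = 0.200) became 0.26 ± 0.052 (adjusted p = 1.29e-05) without knockout replicate 2, which lay below every wild-type library. The order of the 6 subunits per length was the same in both groups, from Ift43 at 27.6 FPKM in wild type to Ift140 at 3.60. The low rank of Ift140 rests on a deposited length of 12902 bases, where its longest coding transcript in GENCODE M21 had 6942.

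Tulp3 links IFT-A to G protein-coupled receptors on their way into the cilium. It rose from 88.8, 90.3 and 96.2 CPM to 105, 104 and 109 CPM, a log2 fold change of 0.21 ± 0.058 (adjusted p = 0.0118, edgeR). The groups did not overlap. The call was lost without wild-type replicate 1 (0.19, adjusted p = 0.0634) and without wild-type replicate 2 (0.20, adjusted p = 0.0567).

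Of the 17 called genes 8 belonged to the IFT-B1 core, with 5 subunits higher and 3 lower. That is 72.7% of the core, beside 59.6% of all genes. The median log2 fold change of the core was 0.24. The largest fall was in Ift88, whose loss in mice was among the earliest known causes of missing cilia. It stood at 16.8, 16.7 and 18.8 CPM in wild type and at 10.7, 10.8 and 10.3 CPM in knockout, with a wide gap between the groups (log2 fold change −0.72 ± 0.089, 60.9% of wild type, adjusted p = 1.41e-04, edgeR). Ift81, whose product binds tubulin together with that of Ift74, fell from 46.4, 45.6 and 45.1 CPM to 30.5, 33.9 and 34.1 CPM (−0.48 ± 0.066, adjusted p = 2.82e-04). The groups were again far apart. Ift46 went from 64.1, 65.2 and 63.3 to 52.3, 60.9 and 54.2 CPM (−0.20 ± 0.069, adjusted p = 0.0305). That call was the least stable of the family, since it was lost when any library other than knockout replicate 2 was left out (adjusted p up to 0.105) and on log2(FPKM + 1) (adjusted p = 0.0501).

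Among the core subunits that rose, Ttc30b had the largest change. It encodes one of the IFT70 proteins, which wrap around IFT52, and it went from 7.11, 6.47 and 5.69 CPM to 12.8, 11.6 and 10.5 CPM, 1.81-fold higher (log2 fold change 0.86 ± 0.12, adjusted p = 3.65e-04, edgeR). Its neighbour and paralogue Ttc30a1 lay at 3.64, 4.20 and 4.19 against 5.10, 4.52 and 4.56 CPM, higher in each knockout library, and did not pass (0.24 ± 0.14, adjusted p = 0.169). These copies share sequence: 34.8% of the 50-base stretches of the Ttc30b transcript and 31.8% of those of Ttc30a1 occur in transcripts of other genes, mostly of Ttc30a2 (GENCODE M21), which had 1 to 4 counts in every library. The sources used here do not say how shared reads were counted.

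Hspb11 (IFT25), a small partner of IFT27 that takes part in the export of Hedgehog proteins, rose from 20.1, 22.4 and 22.2 CPM to 30.8, 37.4 and 30.4 CPM. This 1.53-fold change (log2 0.61 ± 0.098, adjusted p = 6.42e-04, edgeR) left no overlap. Its partner gene Ift27, which encodes a small GTPase, stood at 20.5 ± 1.38 and 22.7 ± 3.30 CPM and did not pass (0.15 ± 0.11). Ift52, Ift74 and Ift22 rose by nearly the same amount. Ift52, the scaffold that joins the inner and outer parts of the core, went from 37.6, 36.0 and 37.6 to 43.0, 51.2 and 43.1 CPM (0.31 ± 0.081, adjusted p = 0.00966). Ift74 went from 58.3, 52.1 and 59.2 to 69.8, 72.4 and 66.5 CPM (0.30 ± 0.069, adjusted p = 0.00478). Neither overlapped between the groups. Ift22, a GTPase-like subunit, went from 16.0, 16.9 and 17.2 to 18.9, 21.7 and 21.0 CPM (0.30 ± 0.084, adjusted p = 0.0135) and did not pass without wild-type replicate 1 (adjusted p = 0.0572). Ttc26 (IFT56) overlapped at 20.1 ± 0.423 and 21.1 ± 1.76 CPM.

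Per length the core subunits spanned a 14.7-fold range in wild type, from Ift27 at 20.6 FPKM to Ttc30a1 at 1.40. Rises and falls altered their order. Hspb11 went from 10.3 to 15.8 FPKM and passed Ift46 (14.4 to 12.6 FPKM) and Ift81 (13.1 to 9.47 FPKM). Ttc30b went from 2.45 to 4.47 FPKM and passed Ift88, which went from 4.03 to 2.47 FPKM. The order of the other subunits was the same in both groups. These ranks rest on the deposited lengths. That of Hspb11 was 2086 bases, where its longest coding transcript in GENCODE M21 had 608, so its place in the order is uncertain.

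In IFT-B2, the module that touches kinesin-2, 1 gene rose and 2 fell, or 50% called beside 59.6% of all genes. Ift20, whose product is also found at the Golgi, rose from 20.9, 19.7 and 21.0 to 26.1, 28.5 and 23.8 CPM (log2 fold change 0.35 ± 0.085, adjusted p = 0.0067, edgeR). Traf3ip1 (IFT54), which binds the product of Ift20, fell from 31.3, 27.1 and 27.8 to 19.1, 17.3 and 19.7 CPM (−0.62 ± 0.087, adjusted p = 2.94e-04). Ift172, the largest subunit, needed for the turnaround of trains at the tip, fell from 49.1, 52.8 and 45.5 to 32.1, 28.9 and 38.5 CPM (−0.57 ± 0.11, adjusted p = 0.00152). None of these 3 genes overlapped between the groups. Ift57 and Cluap1 (IFT38) did, with log2 fold changes of −0.02 (95% interval −0.21 to 0.17) and 0.03 (−0.19 to 0.25). Ift80 stood at 53.3, 58.5 and 55.4 against 66.1, 55.2 and 68.6 CPM, low in knockout replicate 2 alone. It did not pass (0.18 ± 0.087, adjusted p = 0.0963), and without that library it did (0.27 ± 0.052, adjusted p = 4.07e-06). Per length the order of the 6 was the same in both groups, from Ift20 at 17.98 FPKM in wild type to Cluap1 at 2.50. The low rank of Cluap1 rests on a deposited length of 6409 bases, where its longest coding transcript in GENCODE M21 had 1779.

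Several pairs of subunits that bind each other moved apart. Ratios were taken within each library from FPKM. Ift74 stood at 1.20, 1.09 and 1.25 times Ift81 in wild type and at 2.18, 2.03 and 1.86 times in knockout. Ift52 was 4.28, 4.12 and 3.82 times Ift88 in wild type and 7.68, 9.05 and 8.01 times in knockout. In each of these pairs one gene rose and the other fell by test. The same held for Ift20 over Traf3ip1, with ratios of 2.42 ± 0.148 and 4.75 ± 0.750 (SD, n = 3 each), and for Dync2li1 over Dync2h1. Hspb11 over Ift27 went from 0.4998 ± 0.00993 to 0.690 ± 0.0314 without overlap. By contrast Ift57 over Cluap1 was 4.13 ± 0.625 in wild type and 3.98 ± 0.377 in knockout, and Kif3c over Kif3a 0.564 ± 0.0233 and 0.582 ± 0.0197, both with overlap. Kifap3 over Kif3a went from 1.52 ± 0.0579 to 1.32 ± 0.0528, and Kif3b over Kif3a from 0.732 ± 0.0274 to 0.815 ± 0.0294, each without overlap. The pairs were picked with the values of single genes known, and these ratios carry no test. Ratios of other gene pairs were not taken, so moving apart is not known to be particular to binding partners. For single genes CPM did not overlap in 67.6% of all genes tested.

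**Figure D4:**
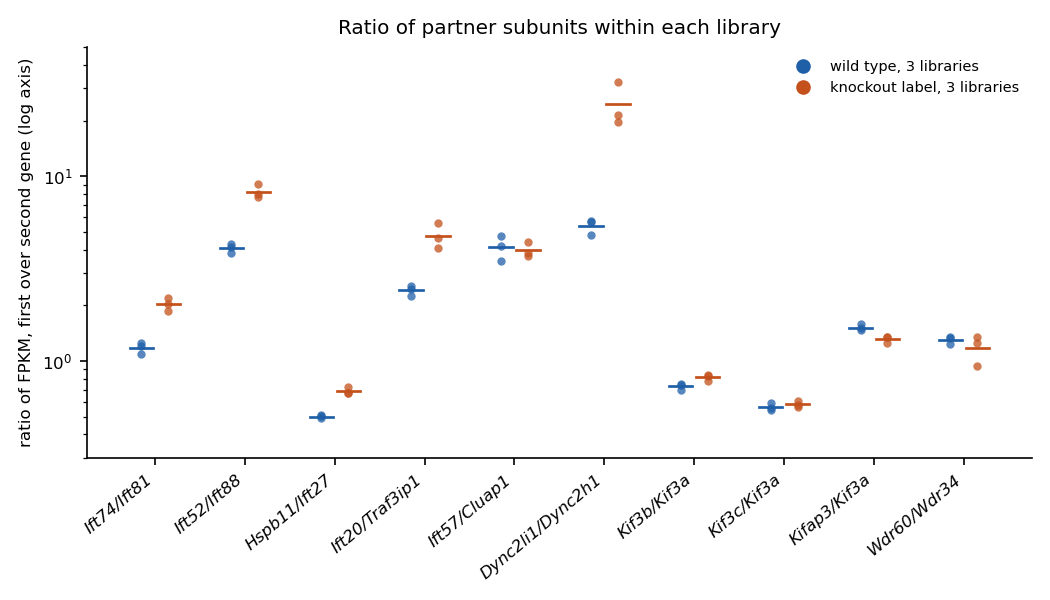
Ratio of FPKM of the first to the second gene of each pair on a log axis, in the 3 wild-type libraries (blue) and the 3 knockout libraries (orange), with lines at the means. The groups are apart for Ift74/Ift81, Ift52/Ift88, Hspb11/Ift27, Ift20/Traf3ip1, Kif3b/Kif3a and Kifap3/Kif3a, farthest for Dync2li1/Dync2h1 (5.38 to 24.6), and overlap for Ift57/Cluap1, Kif3c/Kif3a and Wdr60/Wdr34.

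Kif7, a kinesin-4 that shapes the tip of the cilium and regulates Gli factors of the Hedgehog pathway, is not a motor of the trains. It fell from 25.3, 20.2 and 22.3 CPM to 19.4, 17.6 and 18.1 CPM (log2 fold change −0.30 ± 0.097, adjusted p = 0.0247, edgeR). The groups did not overlap, but the gap between them was small. The call was lost without wild-type replicate 1 (adjusted p = 0.103), without wild-type replicate 3 (adjusted p = 0.0614) and without knockout replicate 3 (adjusted p = 0.0642). On the GENCODE M21 reference 16.2% of its 50-base stretches occur in transcripts of 9330171B17Rik. The same measure, over all other genes, was 43.4% for Kif3c and 43.1% for Cluap1, and at most 5.17% for all members except these and the Ttc30 pair.

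The transport genes tended to move with their neighbours on the chromosome. Each was set beside the tested genes nearest to it, up to 10 on each side. All 8 genes that fell lay in windows with a median below 0, and 7 of the 9 that rose lay in windows with a median above 0. Over the 33 genes the Spearman rho of gene against window was 0.63, a description over genes that share the same 6 libraries. The same measure was not taken over all tested genes, so it is not known to be particular to transport genes. Some changes lay close to the median of their window. Within 0.1 of it were 3 of the 9 genes that rose, 2 of the 8 that fell and 7 of the 16 that did not pass. Single neighbours varied widely, from −2.43 to 1.91 around Ift52 and from −2.09 to 1.35 around Kifap3. Ift52 (0.31) and Wdr35 (0.33) lay in windows with medians of 0.36 and 0.37, and Ift46 (−0.20) and Kifap3 (−0.22) in windows at −0.23 and −0.27.

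Other members went far beyond their windows or against them. Dync2h1 (−1.77) had a window median of −0.29, with 12 of 19 neighbours lower and 3 higher. Its nearest neighbours fell as well, Casp4 by 0.85, Casp12 by 0.79 and Mmp13 by 0.79 on the log2 scale, and Dcun1d5, which overlaps it on the reference, by 0.29. Ttc30b (0.86) lay in a window at 0.06. Ift88 (−0.72) had no higher and 12 lower genes among 20 neighbours, at a median of −0.32. Ift122 did not pass (−0.10) in a window where 14 neighbours rose and 1 fell, at a median of 0.36. Ift74 rose where its neighbours had a median of −0.18, and Dync2li1 where they had −0.06. How much of each change belongs to its region was not tested.

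**Figure D5:**
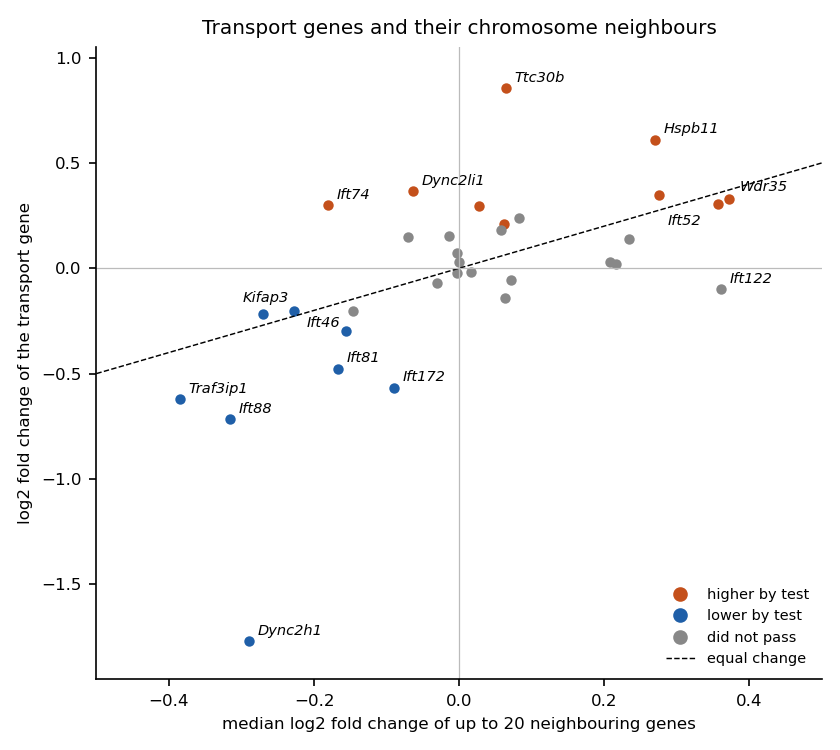
Log2 fold change of each of the 33 transport genes (vertical axis) against the median log2 fold change of up to 20 neighbouring tested genes (horizontal axis), with a dashed line where both are equal. Genes that fell (blue) all lie left of 0, Ift52, Wdr35, Ift46 and Kifap3 lie near the line, and Dync2h1 and Ttc30b lie far from it.

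Transcription of transport genes depends on RFX factors, which bind the X-box, an inverted repeat often found near their start sites. Of the 5 tested factors on the list Rfx3, the one most tied to ciliogenesis, was the only one called (20% of the list, beside 59.6% of all genes). It stood at 26.1, 30.4 and 26.5 CPM in wild type and at 16.9, 10.03 and 15.1 CPM in knockout, with its lowest value in knockout replicate 2 (log2 fold change −0.98 ± 0.16, adjusted p = 8.20e-04, edgeR). Rfx7, the most abundant per length at 10.9 FPKM over all libraries, overlapped at 80.7 ± 7.13 and 97.0 ± 17.5 CPM. Rfx4, the least abundant, had 2 counts in all.

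Promoters of 29 of the 34 genes were found in the RefSeq table (GRCm38.p6), each 300 bases long. No entry was matched for Ift122, Ift80, Ift81, Dync2li1 and Ttc30b. An X-box was searched on both strands as GTTNCC, then 2 free letters (NN), then GGNAAC, with at most 1 of its 10 fixed letters different. It occurred in 4 of the 29 (13.8%), and in 2.56% of all 32851 promoters in the table. An exact match lay in 1 of the 29, that of Ttc26, and in 0.45% of all promoters. The matched stretches are shown because they are the sites behind these counts, with capitals at the fixed letters that match.
Ift22, chr5:136908087-136908100: GTTtCCtgGGctAC
Ift22, chr5:136908117-136908130: GTcgCCgtGGaAAC
Ttc26, chr6:38381491-38381504: GTTgCCgtGGaAAC
Kif3c, chr12:3364956-3364969: GTTgCCgaGagAAC
Ift57, chr16:49699207-49699220: GTTgCCgtGGtgAC

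None of the 7 promoters of genes that fell held a match, Dync2h1 included, and 1 of the 7 promoters of genes that rose did, that of Ift22. The other matches lay in Ttc26, Ift57 and Kif3c, which did not pass the test. A match is a description of letters in this window. Sites with more differing letters or another spacing were not counted, so a promoter without a match may still hold one. In the promoter of Ttc26 (chr6:38381274-38381573, plus strand), shown because it holds the exact match, the match in capitals begins 33 bases before the start.
Ttc26: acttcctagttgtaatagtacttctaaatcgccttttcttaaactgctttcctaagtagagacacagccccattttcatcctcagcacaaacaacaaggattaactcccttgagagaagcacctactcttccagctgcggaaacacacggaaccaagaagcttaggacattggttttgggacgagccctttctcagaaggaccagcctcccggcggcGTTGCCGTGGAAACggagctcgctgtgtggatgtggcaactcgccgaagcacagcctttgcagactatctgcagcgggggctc

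Kinases, GTPases and cargo adaptors work alongside the trains. Of 18 tested 5 rose and 5 fell (median log2 fold change 0.04), and the 55.6% called was near the 59.6% of all genes. Cdk20, a kinase that restrains cilium length, fell from 37.9 ± 2.11 to 21.4 ± 2.06 CPM (−0.82 ± 0.086, adjusted p = 5.17e-05, edgeR). Rab3ip (Rabin8), which activates Rab8 on the way to the cilium, rose from 20.6 ± 1.23 to 35.1 ± 1.39 CPM, and Unc119, a carrier of myristoylated proteins, from 15.2 ± 0.540 to 23.4 ± 3.23 CPM. The list ran from Mak, at 1 count in all libraries, to Rab34 at 59.97 FPKM.

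Trains assemble at the distal appendages of the basal body. Of 16 docking genes tested 2 rose and 4 fell (median −0.20), which is 37.5% called where 59.6% of all genes were. Cep83, which roots these appendages and was the most abundant of the list at 16.8 FPKM, rose from 43.0 ± 0.762 to 57.4 ± 1.49 CPM (log2 fold change 0.42 ± 0.056, adjusted p = 2.33e-04, edgeR), and the appendage gene Sclt1 fell from 17.7 ± 0.780 to 12.7 ± 0.952 CPM. Fuz, of the planar polarity effector module that helps recruit IFT-A, fell by 0.41 ± 0.11 on the log2 scale. Intu, of the same module and the least abundant at 1.24 FPKM, did not pass (0.26 ± 0.11).

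The BBSome rides on the trains as an adaptor for membrane proteins leaving the cilium. Of its 8 subunits 2 rose and 4 fell (median −0.15), or 75% called, beside 59.6% of all genes (30.5% higher and 29.2% lower). Bbs9 fell from 15.8 ± 0.463 to 8.55 ± 0.789 CPM and Ttc8 (BBS8), the most abundant per length at 15.3 FPKM, from 43.8 ± 1.75 to 28.0 ± 2.20 CPM (log2 fold changes −0.89 ± 0.097 and −0.64 ± 0.075, adjusted p = 6.60e-05 and 9.89e-05, edgeR). Bbs1, the least abundant at 2.50 FPKM, rose by 0.49 ± 0.11.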

How the data were processed

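Polyadenylated RNA of 3 wild-type and 3 Rai16 knockout libraries was prepared with a stranded TruSeq kit, per the labels' protocols. The authors deposited raw read counts per gene and FPKM for the same 16000 genes. Trimmomatic, HISAT2, Cufflinks, HTSeq and DESeq with build GRCm39 are named, per the submitters' processing notes; the sources used here give no versions, annotation or strand setting, so overlapping antisense genes cannot be told apart. Genes were filtered with filterByExpr (11972 kept, at least 99.9% of each library's counts), scaled by TMM and tested with edgeR 4.0.16 in R 4.3.3, knockout against wild type, with Benjamini-Hochberg adjustment over all genes. The SE is the size of the log2 fold change over the square root of F. Replicate pairs of a group differed by a chi-square of 26.5 and 28.6 per degree of freedom where knockout replicate 2 was in the pair. The other pairs differed by 1.72 to 2.25. Each library was counted once. Alternatives used DESeq2 1.42.0, limma 3.58.1 (voom, or log2 FPKM with a pseudocount of 1 or 0.1), other scalings, no filter, a replicate block and leaving out each library. Named are all 34 members and, of each related list, up to 3 called genes with the largest changes at 5 CPM or more and those of lowest and highest FPKM. Members, lists and partner pairs were chosen with earlier results of these data known. Neighbour order and gene overlaps came from RefSeq gene positions on GRCm38.p6 (99.7% of tested genes placed), another build than the GRCm39 named for the reads. The test was checked on simulated counts with a common dispersion and no shift with gene length. That check does not cover the deviation of knockout replicate 2.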

Additional observations from a re-analysis of the deposited data

How the results depend on the processing

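Of the 33 transport genes tested, 25 kept their call in all 14 alternatives. The other 8 gained or lost a call in at least 1, and none of the 17 called genes changed direction. The counts of 9 rises and 8 falls were the same with DESeq2, limma voom, DESeq2 size factors, total counts, no filter and log2(FPKM + 0.1), and 9 and 7 on log2(FPKM + 1). Leaving out 1 library gave 7 to 12 rises and 5 to 8 falls, where all genes gave 3024 to 4350 rises and 3023 to 4236 falls. In the same fits IFT-A had 1 to 2 rises, IFT-B2 1 to 2 rises, and kinesin-2 0 to 1 rises and 0 to 1 falls. With the replicate number as a block the counts were again 9 and 8, and the same 17 genes were called. Same-numbered libraries did not deviate together (r from −0.09 to 0.02, and from −0.08 to 0.11 for other pairs). With 3 libraries per group, each centred on its group mean, these values cannot decide whether the numbers pair the libraries. The block changed no call of a transport gene. Without knockout replicate 2 the spread between libraries was smaller and more genes passed (8586 of 12082, against 7136 of 11972). Scaling moved the median of all genes by less than 0.02 on the log2 scale. Depth limits Kif17 (5 counts in all) and the intervals of Ttc30a1 and Wdr34.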

Other observations

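Genes that take cilia apart when cells re-enter the cycle were called in 6 of 7 cases, 4 higher and 2 lower in knockout (median log2 fold change 0.47), in a comparison where 59.6% of all genes were called. The mitotic kinase gene Plk1, the most abundant per length at 18.5 FPKM, rose from 27.2, 27.3 and 25.4 CPM to 56.4, 52.9 and 56.2 CPM (2.07-fold higher, adjusted p = 2.03e-06, edgeR). Kif24, a kinesin that trims microtubules at the mother centriole and the least abundant at 1.24 FPKM, rose from 5.55, 4.98 and 6.32 CPM to 11.1, 10.3 and 12.3 CPM. The tubulin deacetylase gene Hdac6 rose from 33.5, 33.03 and 33.2 CPM to 53.1, 44.4 and 46.7 CPM. For none of these 3 genes did the groups overlap. Kif2a and Nedd9, of the same list, fell by 0.24 and 0.27 on the log2 scale, and Nek2 did not pass (−0.01, adjusted p = 0.85).

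Across the 33 transport genes the log2 fold change itself ran against gene length, with a Spearman rho of −0.49, and −0.32 without knockout replicate 2. Over all genes tested rho was −0.19, and −0.07 without that library. These are correlations across genes of the same libraries.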
